A study of Mus musculus with 8 samples.

Results

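The galectin family was described here through 6 genes of mouse spleen: Lgals1, Lgals3, Lgals4, Lgals8, Lgals9 and Lgals3bp. They were found by gene symbol, as every probe set annotated to 1 of these symbols alone, which gave 8 of the 34945 probe sets with 1 symbol, and 6 of 18193 genes. Lgals1 and Lgals8 had 2 probe sets each, the others 1. The genes were put together with results on the same TG and WT arrays known, so their levels are a description, with no p-value. All 8 probe sets passed the filter on dim values and were among the 22519 probe sets tested.

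Galectins are animal lectins that bind galactose-containing sugar chains on glycoproteins. They are made in the cytosol, leave the cell without a signal peptide and cross-link surface receptors of lymphocytes and myeloid cells, and some also act inside the cell. In lymphoid tissue galectin-1 is best known for damping activated T cells and for binding the pre-B cell receptor, and galectin-3 is known as the macrophage antigen Mac-2.

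RNA of spleen cells (splenocytes) from male C57/BL6 mice was hybridised to 8 Affymetrix mouse arrays, 2 biologic replicates in each of 4 groups. Whether a replicate is 1 mouse or a pool is not given in the sources used here. The groups were HMGA1a transgenic mice (TG) at 12 months, wild-type control littermates (WT) at 12 months, TG mice at 2 months and WT mice at 2 months. HMGA1a is a chromatin protein that binds AT-rich DNA, and per the series' design text the TG mice have no tumours yet at 2 months and established lymphoid tumours at 12 months. The promoter that drives the transgene is not given in the sources used here, and the transgene's own level was not analysed here. Values are signals on a linear scale in arbitrary units, and differences are TG minus WT, or 12 minus 2 months, in log2(signal + 16) ± SE.

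The arrays had median signals between 44.9 and 49.5. Summed signals of cell type markers lay between 15672 and 30659 for 13 B cell genes, between 5193 and 11896 for 14 T cell genes, between 6293 and 27172 for 13 neutrophil genes and between 31160 and 42040 for 19 macrophage and monocyte genes. Arrays shared a difference by replicate number: differences between replicates 1 and 2 correlated between all 6 pairs of groups across probe sets (r = 0.482 to 0.668). The labels do not say what the replicate number stands for. The replicate 1 WT array at 2 months stood apart by exocrine pancreas markers, whose 8 genes summed to 13550 there and to between 560 and 919 elsewhere. The ratio of 3′ to 5′ Gapdh control signal, a sign of RNA quality, was 0.843 and 1.21 in TG and 1.25 and 1.73 in WT mice at 12 months, and 1.07 and 1.48 in TG and 1.01 and 1.39 in WT mice at 2 months (replicates 1 and 2).

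Lgals1 encodes galectin-1, a small galectin with a single sugar-binding domain that acts as a dimer. Its gene lies on chromosome 15, from 78926725 to 78930465 (GRCm38.p6). Probe set 1419573_a_at read 2695 and 2169 in TG and 738 and 617 in WT mice at 12 months, and 1296 and 987 in TG and 1009 and 824 in WT mice at 2 months. Probe set 1455439_a_at read 3771 and 2780 in TG and 1231 and 806 in WT mice at 12 months, and 1951 and 1309 in TG and 1462 and 1067 in WT mice at 2 months. In both probe sets the 2 TG arrays of 12 months were the highest of all 8 and the 2 TG groups did not overlap, whereas TG and WT arrays of 2 months overlapped.

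At 12 months the mean Lgals1 signal was 3.59-fold that of WT mice by 1419573_a_at and 3.22-fold by 1455439_a_at. The log2 differences were 1.82 ± 0.22 and 1.68 ± 0.31, with 1.85 and 1.60 within replicate 1 and 1.79 and 1.77 within replicate 2. These were the 15th and 22nd highest of 22519 differences at that age. Both probe sets had both TG arrays above both WT arrays and were at least 2-fold above WT within each replicate. This held for 78 of all 22519 probe sets (0.346%). At 2 months the differences were 0.31 ± 0.22 and 0.35 ± 0.31, positive within both replicates, at 0.36 and 0.41 in replicate 1 and 0.26 and 0.29 in replicate 2. As arrays were left out they lay between 0.11 (without the replicate 1 TG array) and 0.50 (without the replicate 2 TG array) for 1419573_a_at, and between 0.067 and 0.64 without the same arrays for 1455439_a_at.

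Between ages, the Lgals1 differences had opposite signs in TG and WT mice. In TG mice the signal at 12 months was 2.13-fold (1419573_a_at) and 2.01-fold (1455439_a_at) that at 2 months, with log2 differences of 1.08 ± 0.22 and 1.01 ± 0.31. In WT mice it was 0.739-fold and 0.805-fold, with log2 differences of -0.43 ± 0.22 and -0.32 ± 0.31. Both WT arrays of 12 months lay below both of 2 months in 1419573_a_at, whereas the groups overlapped in 1455439_a_at. The WT value of 1455439_a_at was -0.021 without the replicate 2 array of 12 months and -0.097 without the replicate 1 array of 2 months, and that of 1419573_a_at lay between -0.57 and -0.28 as arrays were left out. The TG minus WT difference at 12 months exceeded that at 2 months by 1.51 ± 0.32 and 1.33 ± 0.43 log2 units. These contrasts share arrays with each other: the TG arrays of 12 months enter both the genotype and the age difference. TG mice have established tumours at 12 months, so transgene and tumour cannot be told apart at that age.

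The shared replicate difference also showed in Lgals1. Replicate 1 read higher than replicate 2 in all 4 groups, by 0.25 to 0.39 log2 units in 1419573_a_at and 0.44 to 0.60 in 1455439_a_at, as in 22.7% of all probe sets. RefSeq lists a pseudogene, Lgals1-ps1, on chromosome 17, and whether either probe set also binds its sequence was not tested. Among cells that can express galectin-1, the 16 stroma and endothelium markers summed to 12278 and 12396 in TG and 12239 and 12143 in WT mice at 12 months (5 markers above and 6 below WT on both TG arrays). The 14 T cell markers summed to 11896 and 5544 in TG and 5193 and 5925 in WT mice, with the replicate 1 TG array the highest. The 13 neutrophil markers summed to 10070 and 22692 in TG and 11029 and 6293 in WT mice at 12 months, and ranged from 6293 to 27172 over the 8 arrays. The 9 plasma cell markers summed to 19755 and 25436 in TG and 17557 and 24499 in WT mice, and the ranges overlapped. The 13 B cell markers summed to 15672 and 27214 in TG and 23297 and 30659 in WT mice, with 7 below and 0 above WT on both TG arrays. Of the T cell markers 3 were above and 1 below WT on both TG arrays, of the neutrophil markers 3 and 1, and of the plasma cell markers 1 and 3. Of all probe sets tested, 15.7% were above and 18.9% below in this way. The part of these cell types in the Lgals1 difference was not tested. In whole spleen cells, more cells of a type and more RNA per cell cannot be told apart. The lower 3′ to 5′ ratio of the TG arrays at 12 months moved with Lgals1, and its part in the difference was not tested.

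**Figure D1:**
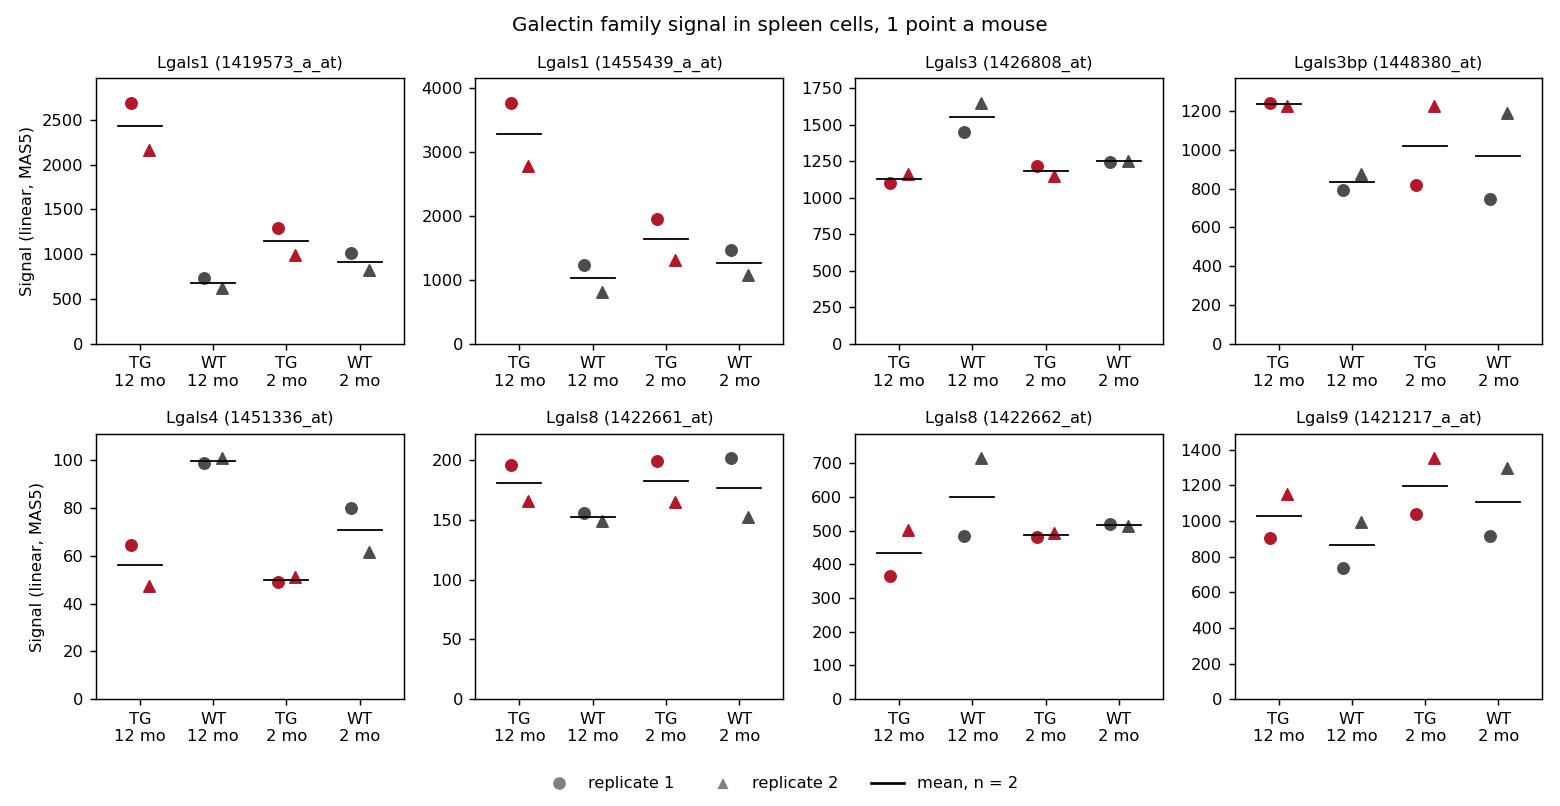
Signal (linear scale, arbitrary units) of the 8 galectin probe sets in TG (red) and WT (grey) spleen cells at 12 and 2 months, with circles for replicate 1, triangles for replicate 2 and bars for the mean of 2 replicates. The 2 Lgals1 probe sets stand at 2169 to 3771 in TG mice of 12 months, above every other array, and Lgals3 and Lgals4 are highest in WT mice of 12 months. Each point is 1 array. The title's wording of 1 point a mouse is not given by the sources used here, where a replicate may be 1 mouse or a pool.

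Lgals3 encodes galectin-3, in which a sugar-binding domain follows a proline- and glycine-rich tail through which molecules assemble (chromosome 14, 47373860 to 47386167). It ran opposite to Lgals1. Signals were 1102 and 1162 in TG and 1451 and 1653 in WT mice at 12 months, and 1216 and 1153 in TG and 1245 and 1254 in WT mice at 2 months. The WT arrays of 12 months were the highest of the 8, and TG lay below WT at both ages without overlap. Mean signal in TG mice was 0.729-fold that in WT mice at 12 months (-0.45 ± 0.17, -0.39 and -0.50 within the replicates) and 0.948-fold at 2 months (-0.077 ± 0.17). The signal at 12 months was 0.956-fold that at 2 months in TG mice (-0.064 ± 0.17, overlapping) and 1.24-fold in WT mice (0.31 ± 0.17, no overlap). The 19 macrophage and monocyte markers, cells in which galectin-3 is abundant, summed to 31160 and 38034 in TG and 40533 and 42040 in WT mice at 12 months. Of these, 8 were below and 2 above WT on both TG arrays, against 18.9% below and 15.7% above of all probe sets tested. None of the markers was under 16 on all arrays, and their part in the Lgals3 difference was not tested.

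The remaining galectins, Lgals4, Lgals8 and Lgals9, carry 2 sugar-binding domains in 1 chain. Galectin-4 is chiefly a protein of gut epithelium, galectin-8 binds integrins and marks damaged endosomes for autophagy, and galectin-9 binds the checkpoint receptor TIM-3. Lgals4 (chromosome 7, 28833122 to 28841710) was dim, with signals near the filter's threshold of 45.3. It read 64.7 and 47.2 in TG and 98.9 and 101 in WT mice at 12 months, and 48.9 and 51.0 in TG and 80.0 and 61.6 in WT mice at 2 months. All 4 TG arrays lay under 65 and below the WT arrays of their age. The TG mean was 0.560-fold the WT mean at 12 months (-0.70 ± 0.23, -0.51 and -0.89 within the replicates) and 0.706-fold at 2 months (-0.39 ± 0.23, -0.56 and -0.21). The size of the 12-month value depended on the offset, at -0.45 with an offset of 64. As arrays were left out the 2-month difference lay between -0.54 and -0.23, the latter without the replicate 1 WT array. That array carried the exocrine pancreas markers, whose part in the Lgals4 difference was not tested. The 8 epithelial markers summed to 251 and 366 in TG and 256 and 257 in WT mice at 12 months. Of these, 3 were above and 1 below WT on both TG arrays, against 15.7% above and 18.9% below of all probe sets tested. Lgals4 itself was lower in TG mice. Only Vil1, the villin gene of gut epithelium, was under 16 on every array. The part of these markers in the Lgals4 difference was not tested.

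Lgals8 (chromosome 13, 12439402 to 12464977) gave opposite signs in its 2 probe sets. Probe set 1422661_at read 196 and 166 in TG and 156 and 149 in WT mice at 12 months, against 199 and 165 in TG and 202 and 152 in WT mice at 2 months. Probe set 1422662_at read 366 and 502 in TG and 485 and 716 in WT mice at 12 months, against 482 and 494 in TG and 520 and 514 in WT mice at 2 months. The first was higher in TG mice at 12 months without overlap (0.22 ± 0.22, 0.30 and 0.14 within the replicates), and the second was lower within both replicates while its groups overlapped (-0.44 ± 0.24, -0.39 and -0.50). The size of the second varied with the arrays used: it was -0.22 without the replicate 1 TG array and -0.17 without the replicate 2 WT array, and -0.66 without the replicate 2 TG array and -0.72 without the replicate 1 WT array. Across the 8 arrays the 2 probe sets had r = -0.56, so no direction is given for the gene.

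Lgals9 (chromosome 11, 78962979 to 78984924) had TG and WT signals that overlapped at both ages. It read 905 and 1149 in TG and 739 and 995 in WT mice at 12 months, and 1042 and 1354 in TG and 915 and 1298 in WT mice at 2 months. TG exceeded WT within each replicate, by 0.29 and 0.21 log2 units at 12 months and by 0.18 and 0.060 at 2 months. The 12-month difference of 0.25 ± 0.26 was 0.036 without the replicate 1 WT array and 0.076 without the replicate 2 TG array. The 2-month difference of 0.12 ± 0.26 was -0.13 without the replicate 1 WT array and -0.064 without the replicate 2 TG array. With 1 array left out the replicate numbers are unbalanced, so these values take in the gap between replicates. Replicate 2 read higher than replicate 1 in all 4 groups, by 0.34 to 0.50 log2 units, as in 24.3% of all probe sets. The 12-month values were lower than the 2-month values within both replicates in TG mice (-0.22 ± 0.26) and in WT mice (-0.34 ± 0.26), with overlapping groups.

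Lgals3bp is not a galectin but a secreted, heavily glycosylated scavenger-receptor protein that galectin-3 and galectin-1 bind (chromosome 11, 118392747 to 118401959). It was 1244 and 1227 in TG and 795 and 877 in WT mice at 12 months, and 817 and 1226 in TG and 747 and 1190 in WT mice at 2 months. At 12 months both TG arrays lay above both WT arrays, at 1.48-fold the WT mean (0.56 ± 0.27, 0.64 and 0.48 within the replicates). At 2 months the groups overlapped (0.084 ± 0.27), and the gap between replicates, 0.58 in TG and 0.66 in WT mice, was larger than that between genotypes. Within replicates 1 and 2 the 2-month difference was 0.13 and 0.042. It was -0.20 without the replicate 2 TG array and -0.25 without the replicate 1 WT array. It was 0.37 without the replicate 1 TG array and 0.41 without the replicate 2 WT array. With 1 array left out the replicate numbers are unbalanced, so these values take in the gap between replicates. In TG mice the 12-month arrays lay above the 2-month arrays only narrowly, 1227 against 1226, and the age difference was 0.60 within replicate 1 and 0.0018 within replicate 2.

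**Figure D2:**
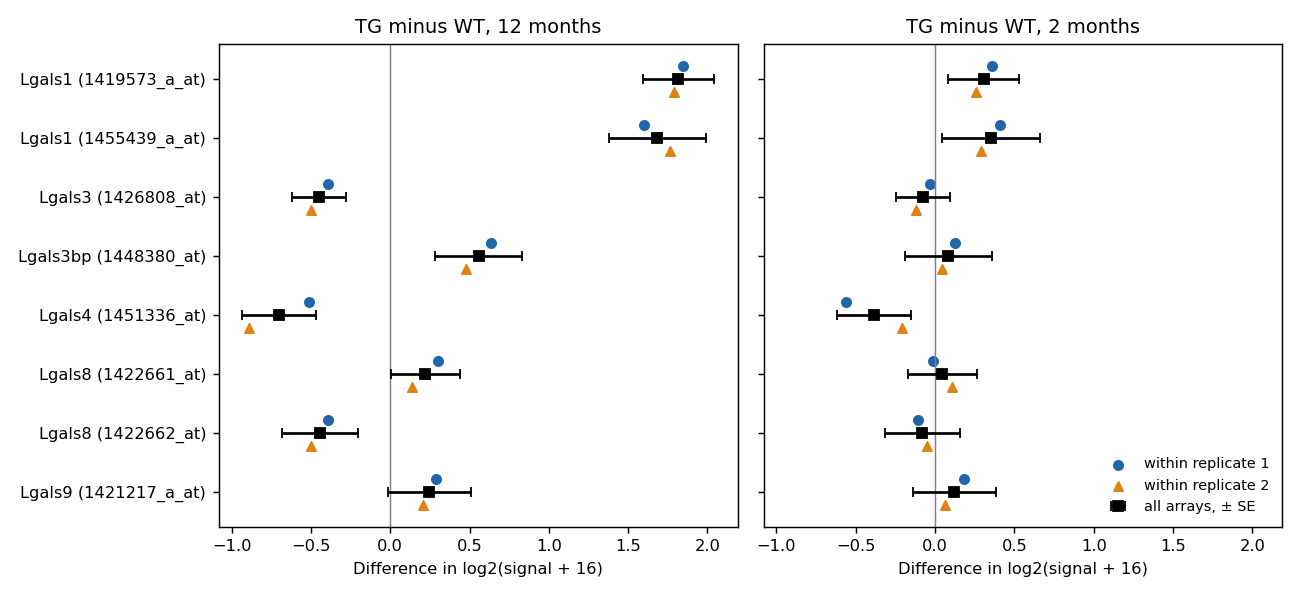
TG minus WT difference in log2(signal + 16) for each galectin probe set at 12 months (left) and 2 months (right), with squares for the fit over all arrays, bars for its SE, circles for replicate 1 and triangles for replicate 2. At 12 months the 2 replicates gave the same sign for every probe set, with Lgals1 at 1.82 and 1.68 and Lgals4 lowest at -0.70.

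Over the family, 6 of 8 probe sets had TG and WT groups that did not overlap at 12 months, 4 above and 2 below, against 34.5% of all probe sets at that age (15.7% above and 18.9% below). At 2 months 3 of 8 did so, all with TG below WT (Lgals3, Lgals4 and 1422662_at of Lgals8), against 18.0% of all (9.57% above and 8.38% below). Between ages, 3 of 8 did not overlap in TG mice (Lgals1 with both probe sets and Lgals3bp, all higher at 12 months), against 27.5% (12.4% above and 15.2% below). In WT mice it was also 3 of 8, with Lgals3 and Lgals4 higher and 1419573_a_at of Lgals1 lower at 12 months, against 23.6% (12.9% above and 10.7% below). The genes were chosen on these contrasts, so nothing is read from these counts.

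**Figure D3:**
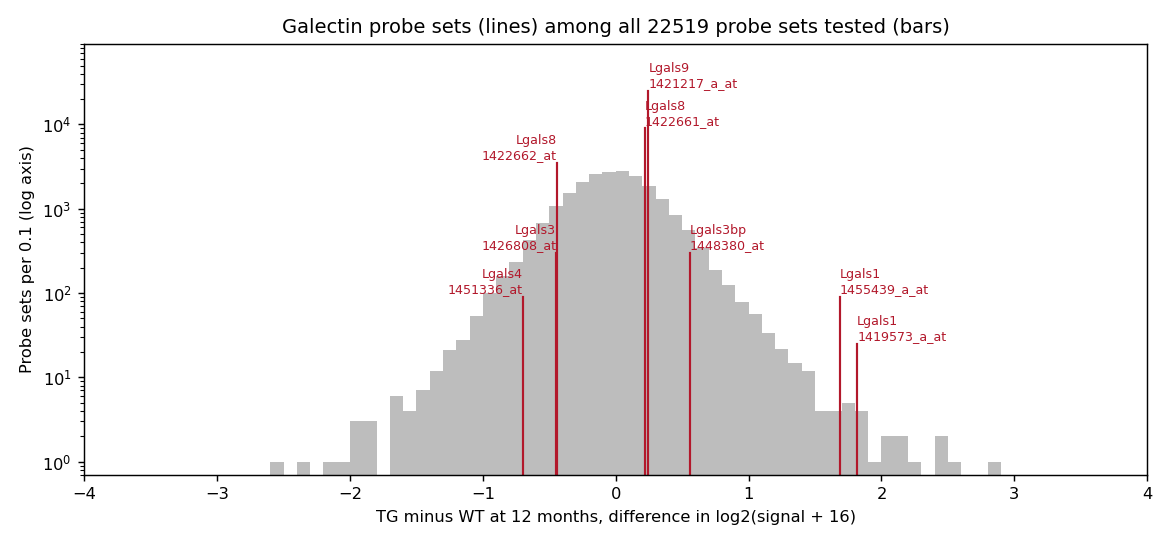
Number of probe sets (log axis) by their TG minus WT difference in log2(signal + 16) at 12 months, for all 22519 probe sets tested, with the 8 galectin probe sets as red lines. The Lgals1 lines at 1.82 and 1.68 lie in the upper tail, ranked 15th and 22nd, and the other lines lie between -0.70 and 0.56.

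Because Lgals9 and Lgals3bp are known interferon-inducible genes, promoters were read for the paired repeat that interferon-regulated factors bind. Promoters of 300 bases, from 250 before to 50 after the gene start, were taken from RefSeq (GRCm38.p6), which gave 5 of the 6 genes, all but Lgals1. The motif AAANNGAAA, searched on both strands, was in Lgals3bp and Lgals9 and in 10.6% of 32851 promoters. A stricter form of it, with a G before its first A, was in Lgals9 but not in Lgals3bp. Of the 5 genes Lgals9 alone had this form, as did 3.44% of promoters. The motif TTCNNNGAA of STAT factors was in none of the 5 and in 8.30% of promoters. The pair below shows where AAANNGAAA (capitals, on either strand) lies, Lgals3bp at chr11:118401910-118402209 and Lgals9 at chr11:78984875-78985174, both on the minus strand and written 5′ to 3′ along the gene.
Lgals3bp: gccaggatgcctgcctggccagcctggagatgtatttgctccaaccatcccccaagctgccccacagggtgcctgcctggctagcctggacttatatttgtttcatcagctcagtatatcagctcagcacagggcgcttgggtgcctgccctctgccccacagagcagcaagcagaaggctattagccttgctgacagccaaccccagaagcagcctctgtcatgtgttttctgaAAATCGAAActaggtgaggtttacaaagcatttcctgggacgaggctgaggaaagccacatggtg
Lgals9: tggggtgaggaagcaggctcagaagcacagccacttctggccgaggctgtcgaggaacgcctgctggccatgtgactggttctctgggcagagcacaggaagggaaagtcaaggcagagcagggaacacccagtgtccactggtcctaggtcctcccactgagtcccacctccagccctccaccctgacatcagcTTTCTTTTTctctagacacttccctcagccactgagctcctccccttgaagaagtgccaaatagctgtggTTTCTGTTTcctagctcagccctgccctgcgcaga

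In Lgals3bp the motif spans bases -15 to -7 from the gene start, and in Lgals9 the 2 matches span bases -55 to -47 and 16 to 24. A match describes these letters, not a bound site. The share of A and T, the bases of the DNA that HMGA1a binds, was 33.0% in the Lgals3 promoter, 42.0% in Lgals9, 45.0% in Lgals3bp, 46.0% in Lgals4 and 48.3% in Lgals8, and the median of all promoters was 47.3%.

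The genes around the galectins were taken from 4 lists that the member rule did not use: other galectins, enzymes that build or cap galectin ligands, glycoproteins that galectins bind, and proteins that clear damaged lysosomes marked by galectins. The lists, like the members, were chosen with earlier results of these data known, so their p-values are not an independent test. None of the list genes passed the test in any of the 5 comparisons (limma, adjusted over all 22519 probe sets). With the replicate number as a block, 1 passed, the enzyme gene B3gnt8 at 12 months. At that age 0 of 22519 probe sets passed in either direction without the block (0.0%), and with the block 28 were higher (0.124%) and 27 lower (0.12%) in TG mice. Unadjusted p was under 0.05 for 1760 of them without the block. For age in TG mice 1 was higher and 1 lower (0.00444% each), and with the block 22 were higher (0.0977%) and 13 lower (0.0577%).

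At 12 months 7 of the 26 enzymes were higher and 19 lower in TG mice, the median being -0.14, against -0.034 over all 11189 genes. Of the 26, 2 had an unadjusted p under 0.05 (limma), against 1760 of all 22519 probe sets. B3gnt8, an enzyme that extends poly-N-acetyllactosamine, the chain galectins favour, read 62.4 and 84.4 in TG and 153 and 182 in WT mice. Its 2 TG arrays lay far below its 2 WT arrays (-1.04 ± 0.23, limma adjusted p = 0.519, and 0.0478 with the replicate block). Mgat2, which starts the second branch of N-linked chains, read 692 and 712 in TG and 356 and 510 in WT mice (0.70 ± 0.21, adjusted p = 0.564). The sialyltransferase gene St3gal6 (0.50 ± 0.31) and Mgat4a, a further branching enzyme (-0.34 ± 0.22), followed by p (limma adjusted p = 0.751 and 0.764). Without the replicate 2 TG array the median of the enzymes was -0.055. At 2 months 11 of the 26 were higher and 15 lower, with a median of -0.024 against 0.0089 over all genes.

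At 12 months 10 of the 27 receptor genes tested were higher and 17 lower in TG mice, the median being -0.13. Of the 27, 6 had an unadjusted p under 0.05 (limma), against 1760 of all 22519 probe sets. The receptor median was -0.027 without the replicate 2 TG array. The T cell adhesion molecule gene Cd2 read 888 and 919 in TG and 512 and 589 in WT mice (0.70 ± 0.22, limma adjusted p = 0.565). Cd7, a galectin-1 receptor on T cells, read 383 and 312 in TG and 192 and 246 in WT mice (0.63 ± 0.23, adjusted p = 0.590). Both genes had both TG arrays above both WT arrays, as did 15.7% of all probe sets tested. The integrin beta chain gene Itgb1 read 1254 and 1051 in TG and 902 and 710 in WT mice (0.51 ± 0.20, adjusted p = 0.599).

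Mcam, an endothelial adhesion molecule that binds galectin-3, read 53.8 and 80.1 in TG and 140 and 133 in WT mice at 12 months (-0.90 ± 0.23, limma adjusted p = 0.552). Mertk, a receptor for dying cells that binds galectin-3, read 347 and 608 in TG and 817 and 778 in WT mice (-0.77 ± 0.28, adjusted p = 0.590). Havcr2, which encodes TIM-3, read 73.8 and 131 in TG and 160 and 185 in WT mice (-0.71 ± 0.30, adjusted p = 0.625). All 3 had both TG arrays below both WT arrays, as did 18.9% of all probe sets tested. At 2 months 14 of the 27 were higher and 13 lower, with a median of 0.021. Cd7 (0.35 ± 0.23) and Mcam (-0.13 ± 0.23) kept the signs they had at 12 months (limma, adjusted p = 1.00 for both). So did Cd2 (0.024 ± 0.22), Itgb1 (0.059 ± 0.20) and Havcr2 (-0.074 ± 0.30), whereas Mertk did not (0.036 ± 0.28).

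At 12 months 9 of the 15 lysosome clearance genes tested were higher and 6 lower in TG mice, the median being 0.071, and none had an unadjusted p under 0.05 (limma). The median was -0.091 without the replicate 2 TG array and -0.082 without the replicate 1 WT array. Tfeb, the transcription factor of lysosome genes, read 311 and 336 in TG and 418 and 443 in WT mice (-0.39 ± 0.22, adjusted p = 0.716), and its difference at 2 months was -0.42 ± 0.22. Map1lc3a, an autophagosome protein gene, differed by -0.37 ± 0.21 and Pdcd6ip, a membrane repair gene, by 0.22 ± 0.23 (limma adjusted p = 0.726 and 0.883). Among other galectins, only Lgalsl and Lgals12 passed the filter on dim values. Lgalsl, a galectin-like protein without known sugar binding, read 294 and 244 in TG and 305 and 275 in WT mice at 12 months (-0.11 ± 0.19), and Lgals12 read 67.9 and 83.4 in TG and 70.5 and 65.7 in WT mice (0.12 ± 0.23). Their groups overlapped at that age. At 2 months Lgalsl read 290 and 321 in TG and 258 and 240 in WT mice (0.28 ± 0.19), and Lgals12 read 67.6 and 89.1 in TG and 62.9 and 61.1 in WT mice (0.27 ± 0.23). Both genes then had both TG arrays above both WT arrays, as did 9.57% of all probe sets tested, with limma adjusted p = 1.00 for each. Lgals2, Lgals7 and Grifin stayed dim, at 44.8 or less for Lgals2, 27.1 or less for Lgals7 and 69.2 or less for Grifin on all arrays.

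**Figure D4:**
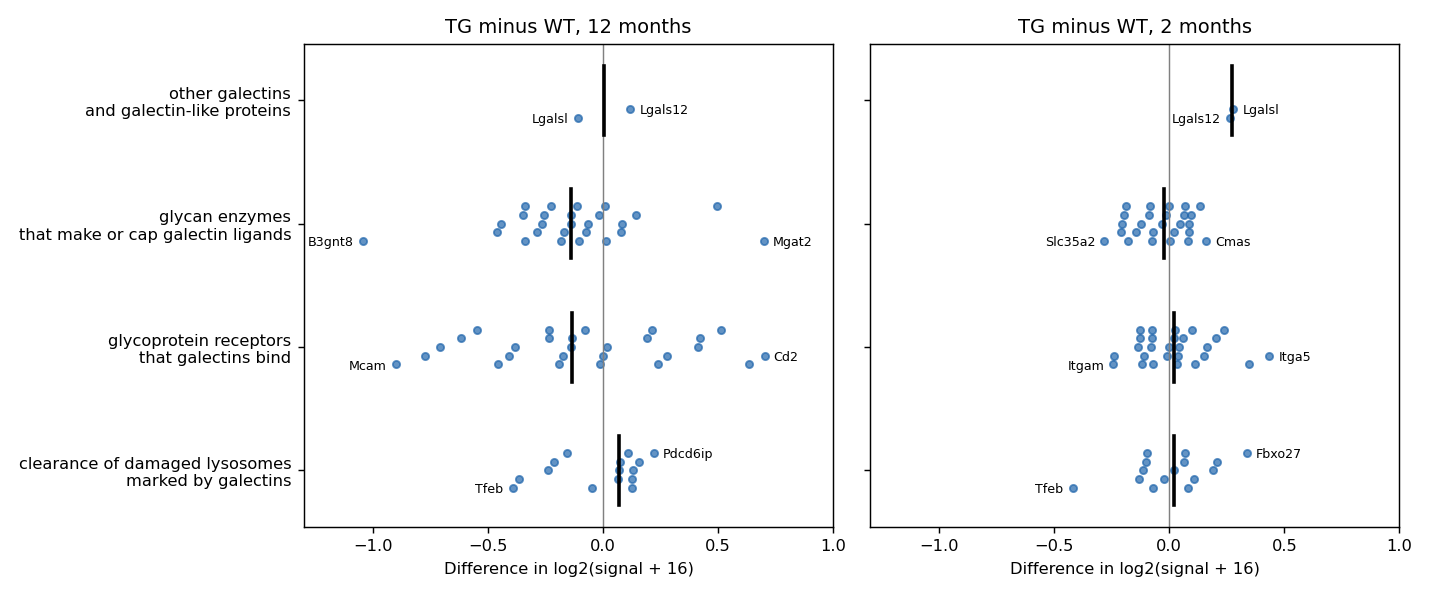
TG minus WT difference in log2(signal + 16) at 12 months (left) and 2 months (right) for each tested gene of the 4 lists, 1 point per gene, with a black bar at the list's median and names at both ends of a list. B3gnt8 lies lowest at 12 months at -1.04, and medians lie between -0.14 and 0.071 at that age.

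The genes most like Lgals1 in pattern were Utp6, Cct5, Cacybp, Plin3 and Dusp10, with Pearson r of 0.992, 0.981, 0.975, 0.968 and 0.966 with probe set 1455439_a_at over the 8 arrays, the highest among 10779 genes. Taken as deviations from the mean of each replicate number, r was 0.961 to 0.995. Utp6, a factor of ribosomal RNA processing, read 365 and 313 in TG and 213 and 182 in WT mice at 12 months, and 261 and 226 in TG and 228 and 216 in WT mice at 2 months. Its 2 TG arrays of 12 months were its highest, as for Lgals1. Utp6 was picked for its likeness to Lgals1 on these arrays, so nothing is read from this. The differences of these 5 genes at 12 months were smaller than that of Lgals1, from 0.36 for Cct5, a chaperonin subunit, to 0.73 for Utp6. Among the family itself, r with 1455439_a_at was -0.76 for Lgals3, -0.55 for Lgals4, -0.11 for Lgals9 and 0.40 for Lgals3bp. For Lgals8 it was -0.80 (1422662_at) and 0.63 (1422661_at). As deviations from the mean of each replicate number, the values were -0.78, -0.70, 0.30, 0.81, -0.77 and 0.56 in the same order. These correlations describe 8 arrays that also differ by replicate number and RNA quality.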

How the data were processed

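Signals of 8 spleen arrays were analysed. The authors deposited linear intensity values, for which the submitters' processing notes name GCOS 1.4 and MAS5. The trimmed mean was 150.001 on every array, after leaving out 0.02 at each end. Depth is set by the number of arrays. Of 45101 probe sets, 64 were controls and were left out. Symbols were updated through gene identifiers for 34741 of 34945 probe sets with 1 symbol. The mean of log2(signal + 16) had to reach the median of all probe sets, which kept 22519. The fit had 4 group means over all 8 arrays (limma 3.58.1, R 4.3.3, eBayes with trend, 4 residual degrees of freedom), Benjamini-Hochberg adjustment over all probe sets, threshold 0.05, and was tested on simulated data. P-values measure the spread between 2 replicates a group, the shared replicate difference included. For lists, the brightest probe set stood for each of 11189 genes. Arrays shared a difference by replicate number, since all 6 group pairs correlated at 0.482 or more. A block for the replicate number was an alternative.

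The galectin members and the lists were chosen with earlier results of these data known. All member probe sets are named. From each list, up to 3 genes per direction are named, past the test or, where none passed, with the smallest p, and the 5 genes (3 for other members) most correlated with a member, leaving out antigen receptor segments, clones and predicted genes. Alternatives were the block, offsets of 1 and 64, quantile scaling, no filter, an upper-quartile filter, 1 probe set a gene, no trend, and each array left out. Fits with an array left out had no block, so their differences take in the shared replicate difference.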

Additional observations from a re-analysis of the deposited data

How the results depend on the processing

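No member's difference changed sign at 12 months under the alternatives that gave it a value, which were all 16 except 1 probe set a gene for 1419573_a_at of Lgals1 and 1422661_at of Lgals8, and the upper-quartile filter for Lgals4; at 2 months those of Lgals3bp, Lgals9 and 1422661_at of Lgals8 did so as arrays were left out. With Lgals1 it stayed between 1.75 and 1.84 (1419573_a_at) and between 1.61 and 1.70 (1455439_a_at), and between 1.66 and 1.97 and between 1.38 and 1.99 as arrays were left out. With the replicate block, 55 probe sets passed the test for TG against WT at 12 months, against 0, and 35 for age in TG mice, against 2; no direction of a member changes under the block, whose differences are those of the balanced fit. The count for age in TG mice was 1 with an offset of 1 and with 1 probe set a gene, 0 with the upper-quartile filter and with no trend, and 0 to 5 as arrays were left out (5 without the replicate 1 TG array of 12 months, 0 without either array of WT at 12 months or of either group at 2 months). Left-out arrays gave 0 to 2 calls for TG against WT at 12 months (2 without the replicate 2 TG array of 12 months), 0 to 2 at 2 months and 0 to 2 for age in WT mice (both without the replicate 2 WT array of 2 months). For the other galectins at 12 months, the median was -0.11 with no filter and with the upper-quartile filter, against 0.0049. The upper-quartile filter left Lgalsl alone in that list, and no filter added the dim Lgals2, Lgals7 and Grifin. As arrays were left out, list medians lay between 0.16 and 0.39 for other galectins at 2 months, between -0.17 and -0.055 for the enzymes at 12 months, between -0.13 and -0.027 for the receptors at 12 months and -0.072 and 0.086 at 2 months, and between -0.091 and 0.16 for lysosome clearance at 12 months. The receptor median at 12 months was -0.040 with the upper-quartile filter. Changes with an array left out take in the shared replicate difference, since the replicate numbers are then unbalanced. What else entered these changes was not tested.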

Other observations

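The genes most like the other members over the 8 arrays, again with no p-value, were Ift43 (r = 0.965), Slc38a9 (0.953) and Sltm (0.951) for Lgals3, and Abhd2 (0.981), Sec23b (0.973) and Hikeshi (0.970) for Lgals3bp. For Lgals4 they were Ylpm1 (0.975), Bckdhb (0.938) and Ttll4 (0.932), for 1422662_at of Lgals8 Etfbkmt (0.961), Ackr4 (0.960) and Dlgap4 (0.957), and for Lgals9 Urgcp (0.978), Lzic (0.977) and Nfkbib (0.973). Ift43, a transport protein of cilia, read 60.8 and 64.5 in TG and 102 and 120 in WT mice at 12 months, a difference of -0.69. Like that of Lgals3 it was negative on both replicate pairs, from which nothing is read, since Ift43 was picked for its likeness to Lgals3. Within the family, Lgals3 and Lgals4 had r = 0.82 over the 8 arrays, and Lgals3bp and 1422662_at of Lgals8 had r = -0.38, which became -0.97 as deviations from the mean of each replicate number.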
